A study of Homo sapiens with 4 samples.

Results

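Partially methylated bins were 100 kb stretches of the HEK293T genome in which, on average over the 2 WT libraries, 10% to 40% of the reads over CpG sites called a methylated cytosine. HEK293T is a human embryonic kidney cell line, and the measurement was EM-seq, in which enzymes convert unmethylated cytosine so that it is read as T while methylated cytosine is still read as C. Of 26403 bins on chromosomes 1 to 22 without chromosome 19 that held at least 200 reads in every library, 5051 bins (19.1%) met this rule. They covered 501.348 Mb of known sequence and 3661424 CpGs, which was 14.3% of the CpGs in the 26403 eligible bins. The level of a bin is the number of methylated calls on both strands divided by all methylated and unmethylated calls, in percent. Because the WT levels themselves chose the bins, those levels are a description, and any difference between ZNF274KO and WT shares its WT values with the choice. At the limits, 413 bins lay within 1 percentage point above 10% and 381 lay within 1 point below it, while 118 lay within 1 point below 40% and 133 within 1 point above it. The nearest bins inside the lower limit had WT means of 10.0046%, 10.006% and 10.0063%, and the nearest outside had 9.99822%, 9.98965% and 9.98856%. At the upper limit the nearest bins inside had 39.9989%, 39.995% and 39.9899%, and the nearest outside had 40.0128%, 40.0259% and 40.0284%.

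The series held 2 libraries of WT HEK293T cells and 2 of ZNF274KO cells, in which the gene of the zinc finger protein ZNF274 was deleted with Cas9 and a pair of guide RNAs placed on either side of it. No treatment or time point separates the groups. The labels do not say whether the 2 libraries of a group came from separate clones or cultures, so their spread may be technical or biological. Over the body of ZNF274 (GRCh37 chr19:58694396-58724928, 501 CpGs), reads per CpG relative to the chromosome were 1.04 and 1.01 in the WT libraries and 0 and 0.00391 in the ZNF274KO libraries, in keeping with their labels. On the autosomes and X, CpGs drew 241598512 to 295114493 reads per library, with a median of 8 to 10 reads per covered CpG. Below, 4 values in a row stand in the order WT 1, WT 2, ZNF274KO 1, ZNF274KO 2.

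CpG methylation is copied to the new strand after DNA replication, mainly by DNMT1 with UHRF1, and in most of the genome of a differentiated cell nearly every CpG outside CpG islands carries it. Cell lines and tumours often lose part of it in large blocks called partially methylated domains, which tend to replicate late, to lie at the nuclear lamina and to hold few active genes. In such domains the loss is known to be deepest at solo CpGs, sites with no other CpG nearby, when an A or T stands on each side of the CG. ZNF274 is a KRAB zinc finger protein that recruits KAP1 (TRIM28) and the histone methyltransferase SETDB1 to its binding sites, among them clusters of zinc finger genes.

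Windows of 120 bases of the GRCh37 forward strand are shown as examples of the sequence behind the levels, from a CpG-poor stretch, a CpG-dense stretch and a called bin. The first comes from the middle bin of the longest unbroken run of partially methylated bins, chr9:30400001-30500000, a stretch of 561 CpGs and 34.5% GC with no protein-coding gene start. Capitals mark the CpGs whose reads are given.
solo CpG, chr9:30412964-30413083: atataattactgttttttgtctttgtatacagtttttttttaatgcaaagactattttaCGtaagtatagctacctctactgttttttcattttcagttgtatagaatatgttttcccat
before the start of LINGO2, chr9:29213603-29213722: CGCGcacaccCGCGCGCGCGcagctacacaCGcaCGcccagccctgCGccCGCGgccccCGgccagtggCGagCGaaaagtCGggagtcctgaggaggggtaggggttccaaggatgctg
CpG in the bin with the largest called rise, chr7:63873409-63873528: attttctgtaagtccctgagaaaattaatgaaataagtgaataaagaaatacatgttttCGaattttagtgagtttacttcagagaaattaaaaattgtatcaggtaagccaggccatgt

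The solo CpG of the first window, between A and T, was methylated in 5 of 13, 3 of 12, 4 of 11 and 4 of 8 reads. It lay in a bin at 37.6% and 36.1% in the WT libraries and was above the mean of solo CpGs between A or T in all partially methylated bins, 8.08% in WT. With so few reads the 95% Wilson interval of the solo CpG in WT 1 ran from 17.7% to 64.5%, which covers counting error only. The window before the start of LINGO2, which encodes a neuronal leucine-rich repeat membrane protein, has 16 CpGs. Summed over these CpGs, 2 of 69, 0 of 131, 2 of 88 and 3 of 113 calls were methylated. A read can give a call at several of the 16 CpGs, so the calls are not independent. The limit of 2.29% that 0 of 131 would allow holds only for independent calls. Inside the longest run this CpG-dense stretch thus had almost no methylated calls in any library, whereas CpGs with 10 or more neighbours averaged 38.1% in WT over all partially methylated bins. In the chromosome 7 window, which was picked after its values were seen, the CpG was methylated in 0 of 16 WT 1 reads (which allows up to 18.8%) and 0 of 9 WT 2 reads (up to 33.3%), against 6 of 10 and 8 of 22 reads of the ZNF274KO libraries.

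Across the genome the bins fell into a small class of low level and a large class of high level, and the partially methylated bins took in the peak of the low class just above 10%, its upper slope and the floor between the classes. Of the eligible bins, 1156 had a WT mean under 10%, 4776 lay over 40% and up to 60%, and 15420 lay over 60%. Within the 10% to 40% range the numbers fell with the level, from 1728 bins at 10% to 15% to 545 bins at 25% to 30%, and 576 bins lay at 35% to 40%. The median WT mean of the partially methylated bins was 19.0%, with quartiles of 13.3% and 28.7%. Averaged over these bins WT 1 stood at 20.4%, WT 2 at 22.3%, ZNF274KO 1 at 24.1% and ZNF274KO 2 at 21.7%. WT 1 was lowest, ZNF274KO 1 was highest, and the remaining libraries of the 2 groups were close to each other with the WT one higher.

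**Figure D1:**
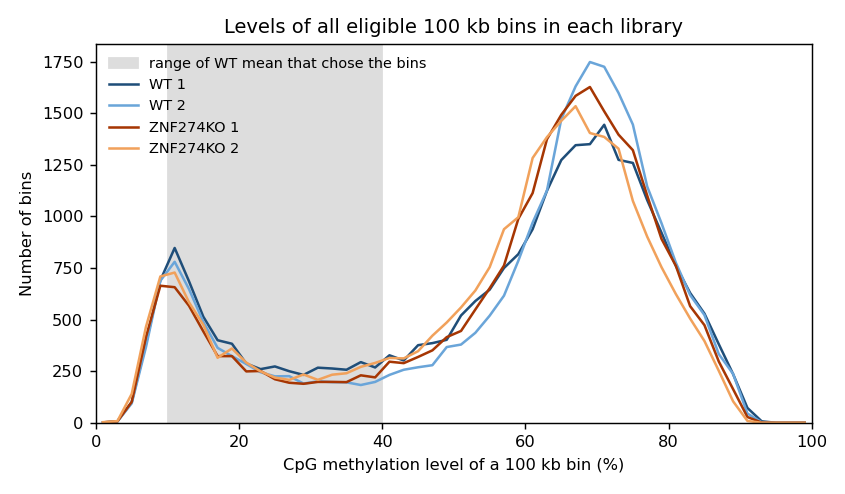
Number of eligible 100 kb bins (y) at each level in steps of 2 percentage points (x, % of reads methylated) for each of the 4 libraries. The shaded range of 10% to 40%, read on the WT mean, chose the 5051 partially methylated bins, which take in the low peak just above 10% in the WT libraries and the floor up to a high peak formed by the 15420 bins over 60%.

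In partially methylated bins, reads per CpG relative to all bins had medians per chromosome between 0.572 on chromosome 13 and 1.25 on chromosome 1 in WT 2. The 4 libraries were near each other on most chromosomes. Libraries of 1 group differed on chromosome 4 (0.703, 0.835, 0.829 and 0.834) and chromosome 9 (0.744, 0.834, 0.692 and 0.809). On chromosome 3 the groups stood apart with WT higher, at 1.10, 1.06, 0.969 and 0.931, and so they did on chromosome 6, at 0.914, 0.890, 0.856 and 0.841. On several others both ZNF274KO libraries were above both WT libraries, among them chromosome 15 (0.637, 0.611, 0.677 and 0.655) and chromosome 16 (0.882, 0.883, 0.923 and 0.921). Whether these depths bear on the levels was not tested. Only 13 of the 5051 bins had fewer than 1000 reads in a library, and 3928 bins were within 10% to 40% in every one of the 4 libraries.

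Partially methylated bins were unevenly spread over the chromosomes. Chromosome 21 had the highest share, 43.1% of its 357 eligible bins, followed by chromosome 8 with 32.4% and chromosome 11 with 29.2%. The lowest shares were on chromosome 13 (8.96%), chromosome 17 (9.85%) and chromosome 4 (11.7%). Chromosomes 16 and 11 had the largest shares of bins under 10% as well, 14.1% and 11.9%, whereas only 4.76% of chromosome 21 was that low. Mean levels of the partially methylated bins varied less between chromosomes than their shares did, from 18.6% on chromosome 11 to 24.8% on chromosome 4 in the WT mean.

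**Figure D2:**
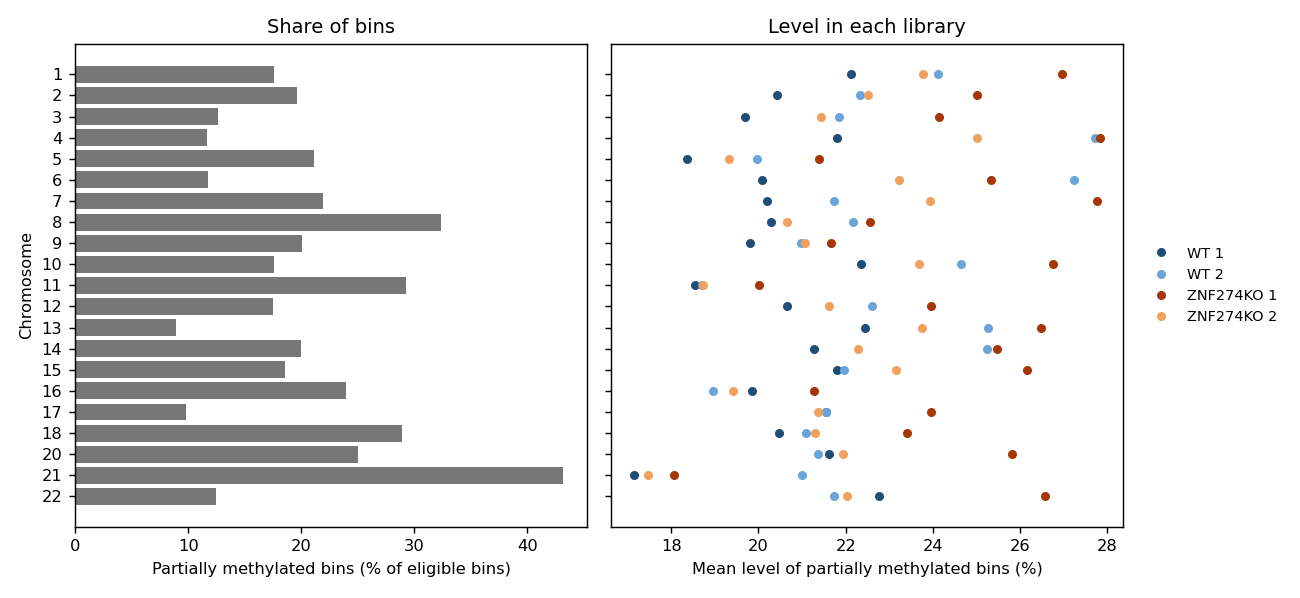
Left, share of eligible 100 kb bins that were partially methylated on each chromosome (bars, %). Right, mean level (%) of those bins in each of the 4 libraries, on an axis that does not start at 0. Chromosome 21 had the highest share, and ZNF274KO 1 lay above the other 3 libraries on most chromosomes but not on chromosomes 6 and 21, where WT 2 was highest.

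Most partially methylated bins stood next to each other. They formed 1450 unbroken runs with a median of 2 bins and a mean of 3.48, and 502 runs were a single bin. The 356 runs of 5 or more bins held 2937 bins (58.1%), and 93 runs had 10 or more. Of the 2900 run ends, 39.8% met a bin under 10%, 46.4% a bin over 40% to 60%, and 12.4% passed directly to a bin over 60%. Joined with the bins under 10%, they made 884 domains at or below 40%, and 63.3% of the partially methylated bins lay in such domains of 10 or more bins. The longest domain was chr16:58800001-66300000, with 75 bins of which 29 were partially methylated.

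At the borders of runs most of the fall lay within 95 kb on each side. The borders were the 368 ends of runs of 5 or more bins at which the next 3 bins outside were all over 40%, averaged in 10 kb tiles, of which up to 2 had no level at a given distance. In WT 1 the mean was 68.0% at 295 kb outside, 62.9% at 95 kb outside, 39.5% at 5 kb outside, 35.8% at 5 kb inside, 21.3% at 95 kb inside and 17.1% at 295 kb inside. In ZNF274KO 1 the values were 69.3%, 65.3%, 44.5%, 40.9%, 26.5% and 22% at the same distances. The fall lay at the same distances in the 4 libraries, and ZNF274KO 1 lay above both WT libraries inside it while ZNF274KO 2 lay between them. The position of 0 follows from the rule, which set where runs end.

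**Figure D3:**
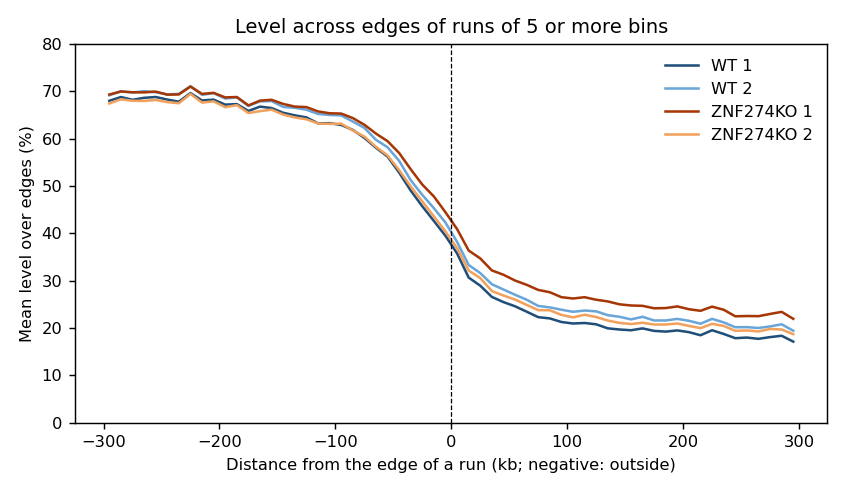
Mean methylation level (y, %) in 10 kb tiles by distance from the border of a run (x, kb, negative outside, 0 at the border of the first partially methylated bin) in each of the 4 libraries, over up to 368 borders. The curves fall from about the level of highly methylated bins to 17.1% to 22% at 295 kb inside.

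The longest run was chr9:28600001-32300000, 37 bins that hold the start of LINGO2 and no other protein-coding start. It averaged 24.5%, 25.6%, 24.8% and 28.9%, and its bins ranged from 12.7% to 38.0% in the WT mean. Here ZNF274KO 2, not ZNF274KO 1, was the highest library, and the groups overlapped.
The next 2 runs were on chromosome 8. The run chr8:82800001-85600000 (28 bins, start of RALYL, a gene of an RNA-binding protein) had 26.4%, 29.8%, 27% and 26.1%. The run chr8:49900001-52500000 (26 bins, starts of PPDPFL and SNTG1, the latter a syntrophin of the dystrophin complex in neurons) had 20.7%, 21.6%, 18.2% and 20.3%, with both ZNF274KO libraries below both WT libraries.
Runs of 20 bins lay at chr1:238000001-240000000 and chr12:16200001-18200000. The first holds the starts of ZP4, a zona pellucida glycoprotein of the egg coat, and CHRM3, a muscarinic acetylcholine receptor, and had 21.6%, 23.1%, 25.6% and 24.6%, with both ZNF274KO libraries higher. The second holds the starts of SLC15A5, a solute carrier, MGST1, a microsomal glutathione transferase, and LMO3, a LIM-domain transcription cofactor, and had 22.6%, 31.2%, 27.9% and 27%, where the WT libraries lay on either side of the ZNF274KO ones. The differences of group means in these 5 runs had both signs, 1.83, -1.52, -1.94, 2.76 and 0.55 points, and the runs were not tested as wholes.

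The promoters in these runs, taken as 1000 bases on each side of the gene start, ranged widely. LINGO2 (107 CpGs) was methylated at 5.79%, 1.49%, 2.23% and 2.2%. RALYL (91 CpGs) was at 7.49%, 4.84%, 3.53% and 2.60%, and CHRM3 (125 CpGs) at 11.7%, 15.6%, 16.3% and 8.93%. SNTG1, whose promoter also has many CpGs (80), was at 52.1%, 52.7%, 45.6% and 45%, above the level of its run. ZP4, with few CpGs in its promoter (20), was at 12%, 9.58%, 9.33% and 11%. The promoter of MGST1 (45 CpGs) was at 38.2%, 35.7%, 48.7% and 32.7%, so the ZNF274KO libraries lay on both sides of the WT ones.

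Partially methylated bins held few CpGs and few genes. Their median was 655 CpGs per 100 kb, between 588 in bins under 10% and 1005 in bins over 60%, and median GC was 38.3% against 41.3% in bins over 60%. Protein-coding genes started in them at 2.51 per Mb, against 8.74 per Mb in bins over 60% and 1.08 in bins under 10%, and 84.1% of them held no such start. Within the 10% to 40% range CpG density changed little, from a median of 633 at 10% to 15% to 676 at 20% to 25% and 671 at 35% to 40%, while gene starts numbered 1.68 per Mb in the lowest of these bands and 3.69 in the highest.

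Several tissue-restricted gene families had a large share of their members in these bins. Of 378 olfactory receptor genes in eligible bins, which encode the odour receptors of nasal neurons, 207 (54.8%) started in partially methylated bins, 120 of them on chromosome 11, and a further 73 started in bins under 10%, where they were 73 of 124 protein-coding genes. Keratin and keratin-associated genes of skin and hair did so for 68 of 149 (45.6%), ionotropic and metabotropic glutamate receptors for 11 of 22 and GABA receptors for 7 of 16. Cadherin genes with the symbol CDH and a number did so for 8 of 23, defensins for 14 of 46 and potassium channels for 19 of 87. The share over all protein-coding genes was 1257 of 17735 (7.09%). Zinc finger genes, taken by the symbols ZNF, ZSCAN, ZKSCAN and ZFP with a number, were near that share, 21 of 284 (7.39%), and clustered protocadherins stood at 7 of 53 and bitter taste receptors at 3 of 24. Genes that every cell uses were missing from these bins, with 0 of 138 ribosomal protein genes, 0 of 45 proteasome genes and 0 of 40 genes of respiratory complex I. Genes of 1 cluster share their bins, so the counts are of genes and not of independent regions. The 207 olfactory receptor genes lay in 78 bins, and the 68 keratin genes in 11.

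The bins of these families differed in what ZNF274KO libraries showed. The 78 bins with olfactory receptor starts averaged 20.6%, 21%, 21.7% and 19.8%, with overlapping groups. The 18 bins with zinc finger gene starts averaged 27.2%, 27.4%, 49.8% and 42.2%, and in 15 of them the ZNF274KO libraries did not overlap the WT ones and were higher, which held for 26.2% of all partially methylated bins and 8.52% of all eligible bins. By edgeR's quasi-likelihood test (Benjamini-Hochberg adjusted p under 0.05) 11 of the 18 were called higher, against 0.538% of all bins tested. The 3 bins with starts of clustered protocadherins, adhesion proteins of neurons that lie in 1 cluster on chromosome 5, averaged 30.4%, 30.6%, 56.5% and 41.6%, also without overlap, and 1 of the 3 was called higher. The 11 keratin bins averaged 20.9%, 22.4%, 24.5% and 22.2%, and the 11 glutamate receptor bins 22.4%, 23.1%, 28.4% and 25.2%. The mean difference between the groups in the glutamate receptor bins, 4.06 points against a median of 1.08, rested on 1 called bin, chr5:178400001-178500000, in which GRM6 starts beside the zinc finger genes ZNF354C and ZNF879. That bin was at 39.4%, 37.9%, 70.7% and 63.0% (edgeR adjusted p = 0.000235), and the other 10 averaged 20.7%, 21.6%, 24.2% and 21.4%, a difference of 1.65 points. Among single genes, named as examples after their values were seen, the bin with the start of GRIN2B, an NMDA receptor subunit, was at 22.1%, 23.6%, 29.4% and 21.8%, that of GRM5, a metabotropic glutamate receptor, at 25%, 33%, 37.2% and 33.1%, and that of the prostate-enriched odorant receptor gene OR51E2 at 20.2%, 18.4%, 23% and 19.5%, none of them called by edgeR.

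Promoters with few and with many CpGs differed from those of highly methylated bins in opposite directions. Promoters with under 50 CpGs had a median WT mean of 14.2% in partially methylated bins (778 promoters) against 74.3% in bins over 60% (3137 promoters). WT levels defined both classes, so this contrast and those of gene bodies and sequence outside genes below largely follow from the choice. Promoters with 50 or more CpGs had 24.2% (443 promoters) against 9.17% (10152 promoters), so the CpG-rich ones carried more methylation in partially methylated bins than in highly methylated ones. Over 50% methylation was found in 104 of the 443 CpG-rich promoters (23.5%). The count was 1664 of 10152 (16.4%) in bins over 60% and 256 of 1995 (12.8%) in bins over 40% to 60%. Gene bodies outside promoters, which are highly methylated in transcribed genes, stood at 22.3% ± 0.66 in WT (SD, n = 2) and sequence outside genes at 21.4% ± 1.2, whereas in bins over 60% the values were 78.9% ± 0.022 and 71.7% ± 1.04.

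Local CpG context graded the level inside the partially methylated bins. Solo CpGs, here with no other CpG within 35 bases, that had A or T on both sides were methylated at 7.14%, 9.02%, 10.7% and 8.77%. Solo CpGs with C or G on both sides stood at 24.5%, 26.1%, 28.6% and 25.6%, which was 17.2 points above the former in the WT mean. CpGs with C or G on both sides and 3 or more neighbours reached 48.3%, 48.8%, 49.9% and 47%. In bins over 60% the WT means of the same 3 contexts were 58.2%, 79.8% and 61%, so the solo contexts lay 21.6 points apart there and the CpGs with 3 or more neighbours stood below the solo ones between C or G. In partially methylated bins the order of the contexts was the same in every library, and the groups overlapped in each of these 3.

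The same was seen with CpG density alone. With no other CpG within 100 bases the level in partially methylated bins was 12.3%, 14.6%, 16.4% and 14.2%, and it rose at each step to 37.9%, 38.3%, 37.8% and 35.7% with 10 or more. In bins over 60% it rose from 67.5% to 80.9% with 6 to 9 neighbours and then fell to 49% with 10 or more, the density of CpG islands. At sites of partially methylated bins with 0 to 5 neighbours ZNF274KO 1 lay above both WT libraries while ZNF274KO 2 lay between them.

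**Figure D4:**
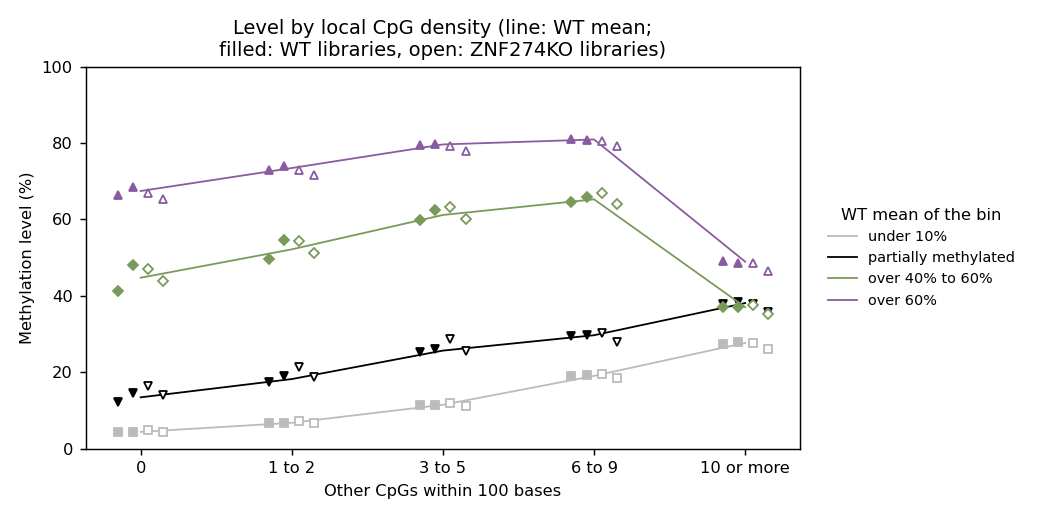
Methylation level (y, %) by the number of other CpGs within 100 bases (x) for bins grouped by their WT mean. Lines give the WT mean, filled symbols the 2 WT libraries and open symbols the 2 ZNF274KO libraries. In partially methylated bins the level rises from 13.5% to 38.1% in the WT mean, and in bins over 60% it turns down at 10 or more neighbours.

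Most CpGs of these bins had low levels. Among 3296763 CpGs of partially methylated bins with at least 10 reads in the summed WT libraries, 65.1% had a level under 20%, among them 40.5% with no methylated read, 26.7% lay from 20% to 80% and 8.18% lay over 80%. In the summed ZNF274KO libraries the shares were 61.9%, 29.7% and 8.40% of 3237420 CpGs. At the scale of 10 kb tiles, 66.5% of 50107 tiles were at 10% to 40% in the WT mean, 24.8% were lower and 8.74% higher. The median SD between the tiles of a bin was 8.42 points, with a median lowest tile of 6.20% and a median highest tile of 34.4%.

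The question of the comparison was whether these bins changed without ZNF274. The ZNF274KO mean was 22.9% ± 1.70 (SD, n = 2) and the WT mean 21.3% ± 1.36 (SD, n = 2), a difference of 1.58 points. The two-sided exact permutation test over the 4 libraries gave p = 0.667, and with 2 against 2 it cannot go below 0.333. The WT levels in it also chose the bins. ZNF274KO 1 was above the mean WT level of a bin by a median of 1.61 points, whereas the median difference of ZNF274KO 2 was -0.227 points. The WT libraries differed by a median of 1.25 points in size and the ZNF274KO libraries by 2.21, and the median size of the difference between the groups was 1.37. The last is a difference between means of 2 libraries, which varies less than a difference between single libraries, so these sizes are not directly comparable. ZNF274KO 1 was above ZNF274KO 2 in 4041 of the 5051 bins, and WT 2 above WT 1 in 3119. When the bins were chosen on WT 1 alone and compared with WT 2, the difference was 0.0959 points, and chosen on WT 2 and compared with WT 1 it was 2.24. Measured against each library's mean over all eligible bins, the difference was 1.96 points without overlap of the groups. Without centring, the groups overlapped. With 1 library left out the difference was 0.621 (without WT 1), 2.54 (without WT 2), 0.378 (without ZNF274KO 1) and 2.78 points (without ZNF274KO 2), so its size rested on single libraries of both groups.

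By level, ZNF274KO 1 was highest above WT at WT means of 25% to 30%, by a median of 4.31 points, and by only 0.214 at 10% to 15%. The excess went on above the range, with medians of 3.14 at 40% to 45% and 1.56 at 50% to 55%. It was -0.0472 at 60% to 65% and -0.454 at 65% to 70%. ZNF274KO 2 was also highest at 25% to 30%, by a median of 0.421 points, and stood at -0.393 at 10% to 15%, -2.25 at 60% to 65% and -1.55 at 85% to 90%. The gap between bins over 60% and partially methylated bins was 51.4, 50.5, 47.6 and 48.5 points. Both ZNF274KO libraries had a narrower gap than both WT libraries, by 2.87 points on average. This measure was added after the data were seen and both classes were chosen on the WT levels that enter it, so it is given with no test. Chosen on WT 1 and set against WT 2, or the reverse, the gap in ZNF274KO was narrower by 1.73 and 2.73 points. Choosing both classes on the ZNF274KO mean instead left it narrower by 2.24 points.

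**Figure D5:**
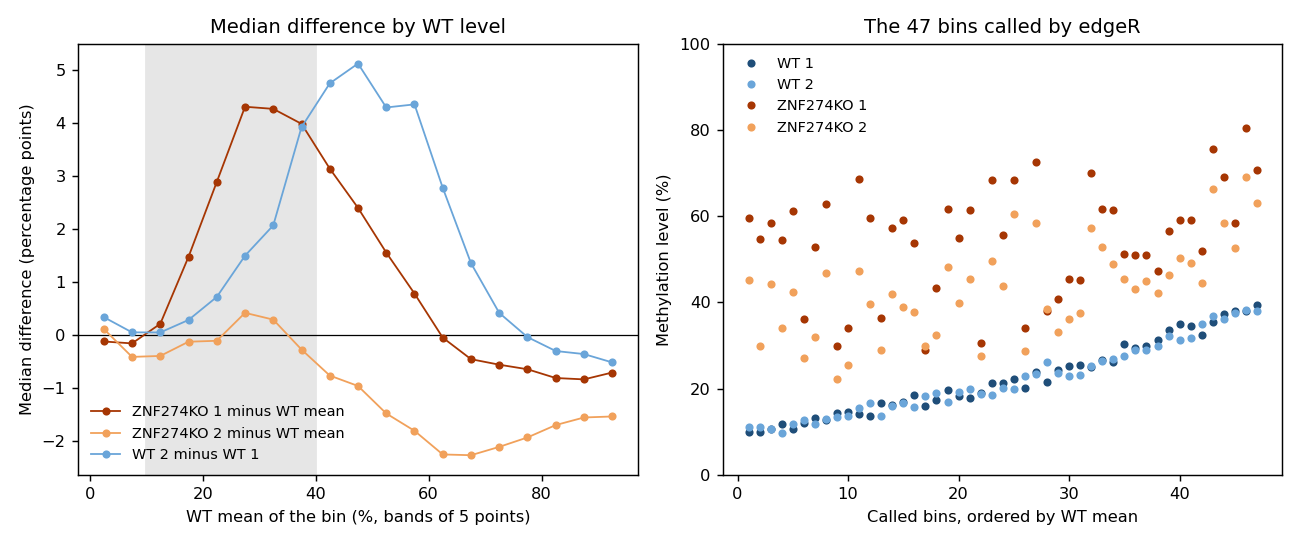
Left, median difference in percentage points (y) between each ZNF274KO library and the WT mean, and between the WT libraries, in bands of 5 points of the WT mean (x). Shading marks 10% to 40%, where ZNF274KO 1 lies up to 4.31 points above WT and ZNF274KO 2 near 0. Right, level (%) in each library of the 47 bins called by edgeR, ordered by WT mean. The ZNF274KO points lie above the WT points in every bin, which the call itself favours.

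In 1321 partially methylated bins (26.2%) both ZNF274KO libraries were above both WT libraries, and in 644 (12.8%) both were below. Over all eligible bins the shares were 8.52% and 28.6%. Since the WT values chose the bins, these counts are given as a description. Of the 5051 bins, 345 were over 40% and 176 under 10% in the ZNF274KO mean, and 4530 stayed within the range.

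Called bin by bin, 47 partially methylated bins (0.931%) had a higher level in ZNF274KO, by edgeR's quasi-likelihood test on methylated and unmethylated read counts with Benjamini-Hochberg adjusted p under 0.05 over all 28458 bins tested, and 0 had a lower level. The WT reads of this test also chose the bins. These counts moved with single libraries. Fewer bins were called without ZNF274KO 1 and more without any other library, most without WT 2, and some calls without WT 1 were lower. The number called over all 28458 bins tested moved in the same way. With all 4 libraries, higher levels were called in 0.538% of all bins tested, which include chromosomes 19 and X, and in 0.288% of the eligible bins. At an unadjusted p under 0.05, 555 partially methylated bins were higher and 27 lower, for which no share over all bins is given here. Limma called 57 higher and 0 lower, 41 of them shared with edgeR, and it called 0.647% of all bins tested. The 47 bins averaged 22.4%, 22.1%, 54.6% and 43.2%. The WT libraries lay close together in them, and in all 47 both ZNF274KO libraries were higher, by 9.84 to 43.5 points of group means with a median of 28.6. The test selects for close replicates and separate groups, so both traits are a description of the called bins. ZNF274KO 1 was the higher of the ZNF274KO libraries in 45 of the 47. Without the called bins, the other 5004 averaged 20.4%, 22.3%, 23.8% and 21.5%, close to the values of all 5051.

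The called bins were grouped in few places. Chromosome 7 held 21, chromosome 2 held 13, chromosome 4 held 4, chromosome 5 held 3, and chromosomes 1, 8, 9, 10, 12 and 13 held 1 each. On chromosome 7, 19 of them lay within chr7:56300001-63900000, on both sides of the centromere, with means of 17.3%, 17.2%, 61.7% and 45.3%. On chromosome 2, 11 lay within chr2:132800001-134400000, with 27.3%, 25.7%, 48.4% and 40.5%, and the nearest zinc finger gene was 36875 kb away. Median reads per CpG relative to all bins there were 1.13, 1.07, 0.994 and 1.03, lower in both ZNF274KO libraries. Over all 47 called bins the medians were 0.896, 0.907, 0.958 and 0.976, higher in both ZNF274KO libraries. Whether depth bears on the called rises was not tested. Of the 47, 28 were within 1000 kb of a zinc finger gene and 12 overlapped one. The called share was 6.90% among the 406 partially methylated bins within 1000 kb of a zinc finger gene and 0.409% among the other 4645. All 19 called bins of the chromosome 7 stretch were among the 28, so this contrast rested largely on 1 place. The shares count bins, and neighbouring bins are not independent regions. Called bins had more CpGs than the rest, a median of 923 per 100 kb, and 32 held no protein-coding gene start.

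The 5 largest called rises were all on chromosome 7. The bin chr7:63800001-63900000, which overlaps the zinc finger gene ZNF736, went from 22.2% and 19.96% in WT 1 and WT 2 to 68.5% and 60.6% in ZNF274KO 1 and 2, a rise of 43.5 points (edgeR adjusted p = 8.05e-05). The bin chr7:63500001-63600000, with the start of the zinc finger gene ZNF727, went from 12.6% and 12.9% to 62.9% and 46.8% (rise of 42.1 points, adjusted p = 0.000179 in edgeR).
The remaining 3 held no protein-coding gene. They were chr7:57000001-57100000, from 14.1% and 15.5% to 68.8% and 47.3% (rise of 43.3, adjusted p = 0.00204 in edgeR, but 0.0569 without ZNF274KO 1), chr7:63200001-63300000, from 23.8% and 23.4% to 72.6% and 58.4% (rise of 41.9, adjusted p = 0.000338), and chr7:62800001-62900000, from 10% and 11% to 59.6% and 45.2% (rise of 41.9, adjusted p = 0.000339). Reads per CpG in these 3 bins were low relative to all bins, at 0.211 to 0.243, 0.445 to 0.506 and 0.12 to 0.148 in that order, with 1250 to 1434 reads per library in the last. In the bins of ZNF736 and ZNF727 the relative depth was 0.831 to 1, with rises of 43.5 and 42.1 points.

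With all 4 libraries and no replicate block, no fall was called by edgeR, whereas 1 of the 150 calls with the replicate block and 7 of the 393 with the crossed pairing, which was added after the data were seen, were lower. The largest falls of group means were in neighbouring bins of chromosome 21. The bin chr21:23700001-23800000 had 31.2%, 41.2%, 26.4% and 27.6%, a difference of -9.19 points (edgeR adjusted p = 0.747), and chr21:23600001-23700000 had 24.8%, 36.3%, 21.2% and 22.6%, a difference of -8.67 (adjusted p = 0.843). In both, WT 2 was the highest library and WT 1 the next. Partially methylated bins of chromosome 21 averaged 17.2%, 21.01%, 18.1% and 17.5%, a mean difference of -1.31 points, the only negative mean among the 21 chromosomes, against 4.89 on chromosome 7. That sign rested on WT 2, since both ZNF274KO libraries were above WT 1.

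WT replicates themselves disagreed in some of these bins. In 358 (7.09%) the WT libraries differed by over 10 points, and WT 2 was the higher in 357 of them. Chromosome 4 held 63 of them, chromosome 6 held 60, chromosome 14 held 45, chromosome 2 held 37 and chromosome 21 held 27. They averaged 24%, 38.9%, 34.9% and 30.7%, with the ZNF274KO libraries between the WT ones. Relative depth there was 0.907, 0.895, 0.924 and 0.899 over all 358, near that of the other partially methylated bins. Chromosomes differed, and over all partially methylated bins of chromosome 4 it was 0.703 in WT 1 against 0.835 in WT 2. The widest gap was at chr5:117400001-117500000, with 18.8%, 51.7%, 42.5% and 35.2%. Leaving these 358 bins out gave means of 20.1%, 21.03%, 23.3% and 21.03% over 4693 bins, a difference between the groups of 1.60 points. That choice by itself lowers WT 2 and narrows the WT spread, so no test is given. The ZNF274KO libraries differed by over 10 points in 89 bins, with ZNF274KO 1 higher in 88.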

How the data were processed

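EM-seq libraries of HEK293T cells (2 WT, 2 ZNF274KO) were used. The authors aligned the reads to hg19 with an added rDNA sequence using Msuite2 v.2.2.0 with HISAT2 and deposited, per library and CpG, counts of reads with each base on each strand. Duplicate and mapping-quality filters are not given in the sources used here. On every chromosome used, each site matched a CG in GRCh37, whose sequence and GENCODE v44 annotation (lifted to that build) gave CpG context and genes. From the deposited counts, methylated and unmethylated calls were summed in 100 kb bins. Levels are shares of reads, each counted at every CpG it covers, and bins are weighted equally in means. Promoters are 1000 bases on each side of a protein-coding gene start.

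Bins of chromosomes 1 to 22 and X with 200 reads in every library were tested with edgeR 4.0.16 (quasi-likelihood, a coefficient per library and a methylation term per group, no replicate block, Benjamini-Hochberg, threshold 0.05), in R 4.3.3. The script was run on simulated counts, which varied less between libraries than the real counts. That run therefore does not show how often the test errs on these data. Single values were tested by two-sided exact permutation over the 4 libraries. Limma 3.58.1 on log2((M + 1)/(U + 1)), other filters, other choices of bins and each library left out were alternatives.

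The rule, the gene lists and the tests were chosen with earlier results of these data known. The text names the 5 longest runs, the 5 largest called rises, the 3 bins nearest each side of each limit, the 3 chromosomes with the highest and the lowest share, and genes starting in those regions. The largest falls, the widest WT gap, the example receptor genes and the sequence windows at LINGO2 and on chromosome 7 were picked after their values were seen. P-values set a difference between the groups against the spread between these libraries, and intervals cover counting error only. The labels do not say whether replicate numbers pair the samples. Across eligible bins WT 2 minus WT 1 correlated with ZNF274KO 2 minus ZNF274KO 1 at -0.196. With 1 such difference per group this cannot decide whether libraries were paired. Some sequence windows of the longest run are not reported here.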

Additional observations from a re-analysis of the deposited data

How the results depend on the processing

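The number of partially methylated bins was 4706 to 5481 over 6 alternatives (a minimum of 1000 reads, deep CpGs left out, an unweighted mean over CpGs, and the choice on WT 1, WT 2 or the ZNF274KO mean), and bins of 50 kb gave 19.0% in place of 19.1%. The difference of group means kept its sign under each alternative run, from 0.0959 (chosen on WT 1) to 2.71 points (75th percentile over CpGs), and was 0.378 to 2.78 with 1 library left out. With a replicate block it was 1.58 points, made of 3.74 in pair 1 and -0.581 in pair 2. Of the 47 called bins, the count was 150 with the replicate block and 393 with the crossed pairing, which was added after the data were seen because same-numbered libraries deviated oppositely. With 1 library left out it ranged from 22 (without ZNF274KO 1) to 463 (without WT 2), with 276 of which 175 were higher without WT 1, and 66 without ZNF274KO 2. All 47 were among the calls under the replicate block, without WT 1 and without WT 2, 22 of them remained without ZNF274KO 1 and 39 without ZNF274KO 2. Centring gave 67 (0.692% of all bins tested were called) and limma 57 (0.647%). A group of 1 library took its spread from the remaining ones. The cause of these shifts was not tested. The 5 named rises kept their direction and threshold in 49 of 50 refits, the exception being 1 bin without ZNF274KO 1 (adjusted p = 0.0569 in edgeR). Solo CpGs with A or T on both sides were 17.2 points below those with C or G on both sides (-17.2), with -17.2 for neighbours within 100 bases and -17.3 without deep CpGs, while against clustered CpGs, a contrast added later, the difference was -40.5. In CpGs with A or T on both sides and 3 or more neighbours, ZNF274KO minus WT was -2.29 points with all CpGs and 0.897 once CpGs over 5 times the median depth were left out. With 2 libraries a group, differences of bin levels of a few points cannot be resolved.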

Other observations

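Chromosomes 19 and X were outside the rule. With the same range of WT mean, 129 of 562 bins of chromosome 19 (23%) would have been partially methylated, with mean levels of 22.6% and 22.2% in the WT libraries and 40.2% and 33.6% in the ZNF274KO libraries. Of these, 46 were called higher by edgeR, against 0.538% of all bins tested, and in 89 the ZNF274KO libraries were higher without overlap, against 8.52% of the eligible bins. On chromosome X, 820 of 1493 bins (54.9%) fell in the range, with 19.9%, 21.1%, 20.5% and 19.4% in the same order, and 0 were called by edgeR at the adjusted threshold.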
